A study of Mus musculus with 12 samples.

Results

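The 10 genes described here are Nfe2l2 and Keap1, the regulator and the sensor of the NRF2 oxidative stress response, and 8 genes known as its targets: Slc7a11, Gclc, Gclm, Txnrd1, Srxn1, Nqo1, Hmox1 and Osgin1. They were taken by symbol from the 46729 entries of a deposited expression table and the 46727 entries of a deposited comparison, with their values in both tables already in view. All 10 had a single entry in each table. Gclm shared its entry with Gm6061, a pseudogene that overlaps the Gclm gene on the same strand, and reads of that pair cannot be told apart. The comparison table places this entry at chromosome 3, 122245557 to 122530191, which runs past the annotated end of Gclm at 122270732.

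The cells were bone-marrow-derived macrophages of C57BL6 mice, a common inbred strain, differentiated for 10 days with medium conditioned by L-929 cells as the source of CSF-1, with interleukin-3 added at the first stage. Macrophages were left untreated or were given interferon gamma (IFNγ) for 8 h, at a dose of 0.2, 2 or 20 U/ml, and the label of the highest dose names the unit without the volume. The labels list 12 libraries, 3 for each of the 4 groups, without saying whether they came from separate animals. The dose table holds 1 value per group, in FPKM (fragments mapped to a gene, scaled to transcript length and to the size of its library), so no difference between doses has a replicate check, and the depth is unknown. The comparison table was made with Cuffdiff and names its conditions only untreated and treated. All labels point to a table of that type, but no source used here gives the agent or dose behind "treated".

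NRF2, the product of Nfe2l2, is a transcription factor that KEAP1 holds in the cytoplasm and delivers to a CUL3 ubiquitin ligase for degradation. Oxidants and electrophiles modify KEAP1, NRF2 then accumulates, pairs with a small MAF protein and binds antioxidant response elements. Its targets supply glutathione, reduce thioredoxin and peroxiredoxins, detoxify quinones and break down heme, and in macrophages the pathway limits oxidant damage and inflammatory gene expression.

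Promoter letters that match the known NRF2 element are shown first, because the 10 genes are grouped by this factor. No binding was measured. RefSeq promoter windows (GRCm38.p6, the assembly behind mm10, from 250 bases before to 50 bases after an annotated start) were matched for 8 of the 10 genes, in 10 windows. Gclc and Hmox1 had no window and were not searched. The core of the antioxidant response element, TGACNNNGC, was searched on both strands, with overlaps allowed. It lay in 4 of the 10 windows and in 12.4% of all 32851 windows. These 4 were 1 window for each of 4 genes (Gclm, Srxn1, Txnrd1 and Nfe2l2). The core match of Srxn1 lay 28 bases after the start, in an exon of Srxn1. Those of Gclm, Txnrd1 and Nfe2l2 lay before the start. The looser TGANNNNGC, which includes the core, lay in 8 of the 10 windows, from 7 of the 8 genes, and in 41.3% of all windows. A stricter form, TGANTCAGC, was added after the data were seen. It lay in 2 of the 10 windows, those of Srxn1 and Osgin1, and in 1.19% of all windows. Each of its matches is also a match of the looser form. The stricter site of Srxn1 lay 45 bases before the start and is not a match of the core. A match is a description of these letters only.

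The sites below are shown with 8 flanking bases on each side in the direction of the gene, with the matched letters in capitals, so that the element can be compared between genes.
Srxn1, TGANTCAGC, chr2:152105471-152105495 (+ strand, intergenic, 45 bases before the start): attcacccTGAGTCAGCggccgggc
Osgin1, TGANTCAGC on the opposite strand, chr8:119437040-119437064 (+ strand, in an intron of a longer Osgin1 transcript, 99 bases before the start): gggcccctGCTGACTCAcgcttatg
Gclm, TGACNNNGC on the opposite strand, chr3:122245415-122245439 (+ strand, intergenic, 134 bases before the start): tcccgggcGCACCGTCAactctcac
Txnrd1, TGACNNNGC on the opposite strand, chr10:82859106-82859130 (+ strand, in an intron of a longer Txnrd1 transcript, 92 bases before the start of the second window): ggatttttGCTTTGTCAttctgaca
Nfe2l2, TGACNNNGC, chr2:75704887-75704911 (- strand, in an exon of the neighbouring gene E030042O20Rik, 240 bases before the start): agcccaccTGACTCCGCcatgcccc

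Srxn1 and Osgin1, the 2 genes with the stricter site, are shown with the sequence upstream of the start outside their own exons, with the same site in capitals.
Srxn1, chr2:152105274-152105515, + strand: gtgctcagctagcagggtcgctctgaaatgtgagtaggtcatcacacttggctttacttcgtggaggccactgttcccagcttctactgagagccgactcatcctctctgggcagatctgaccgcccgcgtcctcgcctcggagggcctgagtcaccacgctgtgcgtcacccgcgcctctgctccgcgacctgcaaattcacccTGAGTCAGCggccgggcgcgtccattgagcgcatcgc
Osgin1, chr8:119436897-119437117, + strand: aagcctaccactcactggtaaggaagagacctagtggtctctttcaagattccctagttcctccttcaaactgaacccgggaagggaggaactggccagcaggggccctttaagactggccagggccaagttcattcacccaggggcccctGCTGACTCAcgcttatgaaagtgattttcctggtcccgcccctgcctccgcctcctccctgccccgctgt

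**Figure D1:**
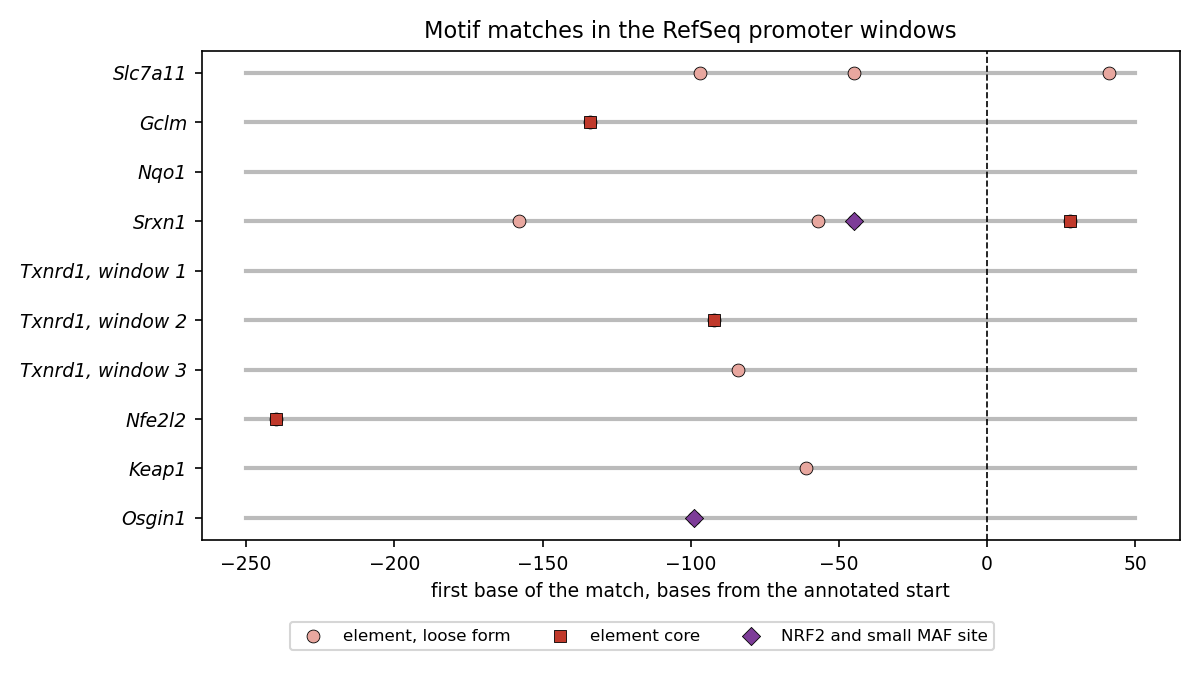
Positions of motif matches in the 10 RefSeq windows of 8 genes. The x axis gives the first base of a match in bases from the annotated start (dashed line), each grey line is a window, and squares and diamonds lie over circles because both are also matches of the looser form. Srxn1 has a stricter site 45 bases before the start and Osgin1 has 1 at 99 bases, while the Nqo1 window has no match.

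On the log2(FPKM + 1) scale none of these genes lay 2-fold from untreated cells at any IFNγ dose, and most lay below the untreated level. In plain FPKM, Nqo1 and Slc7a11 at 20 U/ml were at 0.460 and 0.492 of their low untreated values. The difference was taken as log2(FPKM + 1) of a dose minus that of untreated cells, a scale that understates differences of low genes, and 1 or more in size is a 2-fold difference on it. Of the 10 genes, 9 passed a filter of a mean of at least 1 FPKM with no group at 0, and Slc7a11 did not. At each of the 3 doses 0 of 9 were 2-fold higher and 0 of 9 were 2-fold lower. Over the 11580 entries that passed, 5.23%, 2.5% and 6.51% were 2-fold higher at the rising doses, and 0.328%, 0.76% and 2.94% were 2-fold lower. Below untreated were 8, 8 and 6 of the 9 genes in order of dose, against 49.7%, 48.4% and 48.9% of all entries. Medians over the 9 were -0.37, -0.33 and -0.64 in order of dose, beside 0.00, 0.01 and 0.01 over all entries. At the lesser size of 1.5-fold, 5 of 9 were lower and 1 higher at 20 U/ml, beside 9.6% lower and 12.6% higher of all entries. At that size 1 of 9 was higher at 0.2 U/ml and 0 lower (all entries 11.6% and 1.42%), and none passed it at 2 U/ml (5.35% and 3.43%). These values were known when the genes were chosen, and nothing is read from the counts.

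Keap1 and Nfe2l2, the sensor and the factor it holds, lay on opposite sides of the untreated level. Keap1 (chromosome 9, 21229730 to 21239361, GRCm38) had an untreated level of 23.7 FPKM and levels of 44.1, 31.5 and 46.6 FPKM at 0.2, 2 and 20 U/ml. It was the only gene of the 10 whose lowest value was the untreated one, and its level did not follow the order of the doses. Its log2 differences were 0.86, 0.39 and 0.94. Nfe2l2 (chromosome 2, 75675513 to 75704641) was at 92.8 FPKM untreated and at 69.6, 73.4 and 79.8 in order of dose. All 3 doses were below untreated, with log2 differences of -0.41, -0.33 and -0.21, the lowest dose being farthest from untreated cells. The ratio of Nfe2l2 to Keap1 FPKM was 3.91 in untreated cells and 1.58, 2.33 and 1.71 at the rising doses. Gm16754 is an antisense transcript over Keap1, and without a stated strand its reads cannot be separated from those of Keap1. Gm16754 was listed at 2.56, 2.103, 3.24 and 4.06 FPKM. Annotated genes also overlap Slc7a11, Gclm, Txnrd1 and Nfe2l2. Gm17494, opposite Gclm, was at 3.74 FPKM untreated and 2.52 at 20 U/ml, and at 0.620 and 1.30 in the authors' deposited table. Eid3, on the same strand as Txnrd1, was at 0.619 FPKM untreated and 0.319 at 20 U/ml, and at 0.226 and 5.75 in the authors' deposited table.

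The genes of glutathione supply split between the catalytic and the modifier subunit. Gclc encodes the catalytic subunit of glutamate-cysteine ligase, which makes the dipeptide precursor of glutathione (chromosome 9, 77754535 to 77794485). Gclc was at 15.3 FPKM untreated and at 10.7, 10.8 and 9.03 at 0.2, 2 and 20 U/ml, a log2 difference of -0.70 at the highest dose. All 3 treated groups were below the untreated value, and the 0.2 and 2 U/ml groups were nearly level. The entry of Gclm, the modifier subunit that raises the activity of Gclc (chromosome 3, 122245557 to 122270732), was at 97.1 FPKM untreated and at 72.7, 85.5 and 106 in order of dose. Here the lowest dose was lowest, and the log2 difference at 20 U/ml was 0.12, or -0.02 with upper-quartile scaling. The Gclm entry therefore stood 6.34 times above Gclc in FPKM in untreated cells and 11.7 times above it at 20 U/ml.

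Slc7a11, the light chain of the cystine importer xCT (chromosome 3, 49892526 to 50443614), was near the floor in this table. It was at 0.713 FPKM untreated and at 0.789, 0.441 and 0.350 in order of dose. At this level the log2(FPKM + 1) difference at 20 U/ml was -0.34. Slc3a2, the heavy chain that xCT shares with other amino acid transporters, was at 535 FPKM untreated and 919 at 20 U/ml.

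The enzymes of thiol and quinone reduction, Txnrd1, Nqo1 and Srxn1, were lowest at 20 U/ml. Txnrd1, thioredoxin reductase (chromosome 10, 82833951 to 82897712), was at 44.4 FPKM untreated and at 36.1, 34.7 and 27.3 in order of dose. Nqo1, a quinone reductase (chromosome 8, 107388225 to 107403206), was at 2.42, 1.82, 1.39 and 1.11 FPKM in the same order. Txnrd1 and Nqo1 were the 2 genes of the 10 that were lower at every step of dose. Srxn1, sulfiredoxin, which repairs over-oxidized peroxiredoxins (chromosome 2, 152105516 to 152111376), was at 43.0 FPKM untreated and at 33.1, 34.1 and 27.2. The log2 differences at 20 U/ml were close together, at -0.68 for Txnrd1, -0.69 for Nqo1 and -0.64 for Srxn1. Nqo1 is low enough for the pseudocount to matter: its log2 difference at 20 U/ml was -1.05 with a pseudocount of 0.1, past 2-fold.

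Hmox1 and Osgin1 took different courses. Hmox1, heme oxygenase 1, which cleaves heme to biliverdin, iron and carbon monoxide (chromosome 8, 75093621 to 75100589), had the highest FPKM of the 10 in every group. It was at 219.8 FPKM untreated and at 154, 185 and 223 in order of dose. As for Gclm and Nfe2l2, the lowest of the 4 values was at 0.2 U/ml. The log2 difference of Hmox1 at 20 U/ml was 0.02, and -0.12 with upper-quartile or -0.09 with median scaling. Osgin1, an oxidative stress induced growth inhibitor (chromosome 8, 119434124 to 119446256), was at 5.79 FPKM untreated and at 4.33, 4.34 and 3.22. Its lowest value was at 20 U/ml, with a log2 difference of -0.69. Of the 10 genes, 6 had their lowest FPKM at 20 U/ml, 3 at 0.2 U/ml and 1 in untreated cells.

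**Figure D2:**
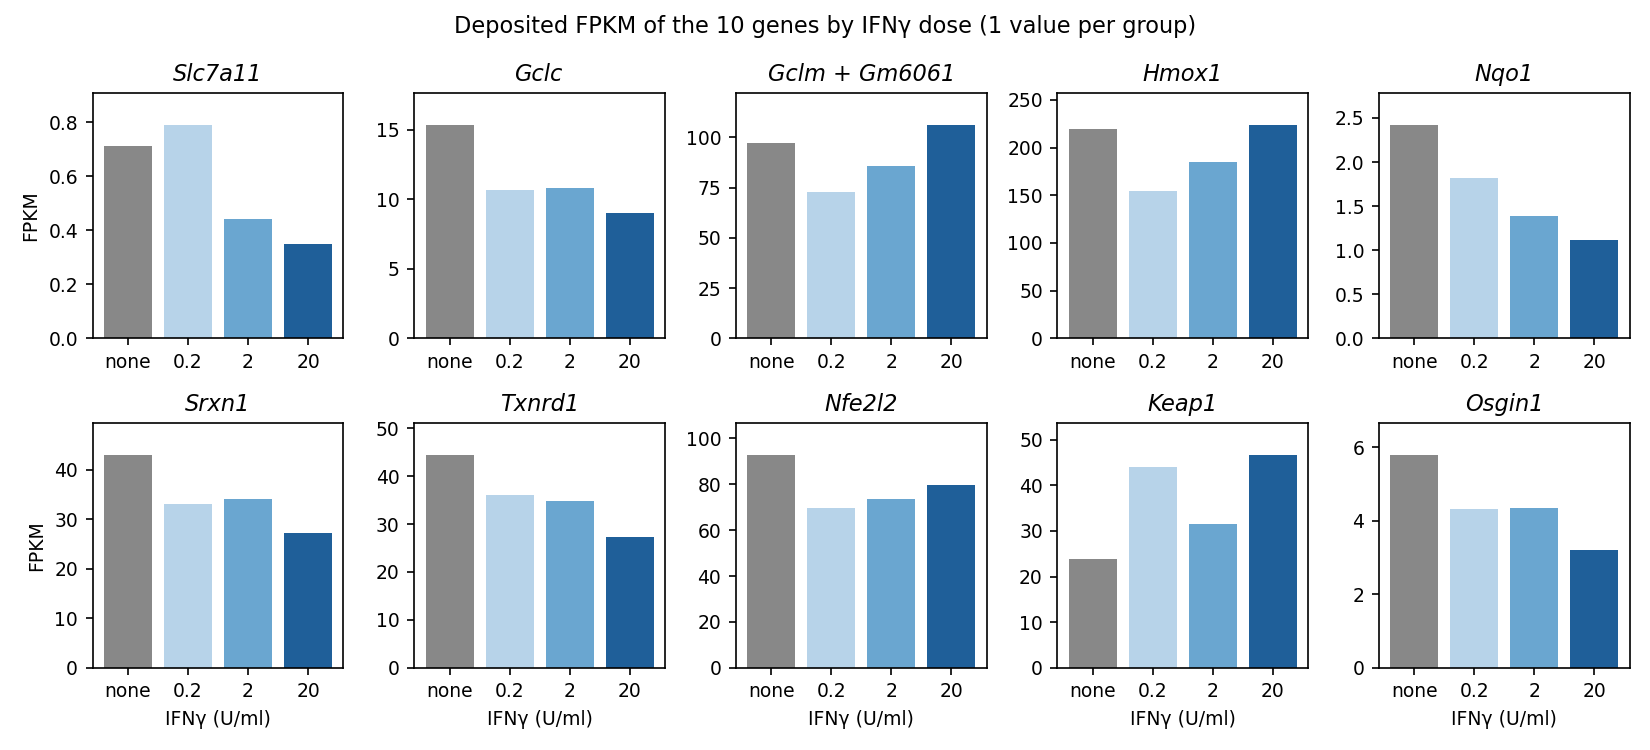
Deposited FPKM (y axis, a separate scale from 0 for each gene) of the 10 genes in untreated macrophages and at 0.2, 2 and 20 U/ml IFNγ (x axis); each bar is the single deposited value of a group and has no error. Keap1 is highest at 20 U/ml (46.6 FPKM), Gclc, Nqo1, Srxn1, Txnrd1 and Osgin1 are lowest there, and Gclm, Hmox1 and Nfe2l2 are lowest at 0.2 U/ml.

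The deposited comparison gave a different picture for the same symbols. All 10 genes were higher in the treated condition of the authors' deposited table with a q of 9.95e-05, and 9 of 10 by a log2 fold change of at least 1. That q belongs to the smallest p-value of the authors' deposited table, 5e-05, which 50.3% of its 12854 tested entries share, so it does not rank the genes. Called higher in the authors' deposited table were 35.1% of tested entries, 23.7% with a log2 fold change of 1 or more, and 33.8% were called lower. The median log2 fold change in the authors' deposited table was 2.34 over the 10 genes and 0.03 over all tested entries. These values, too, were in view when the genes were chosen.

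The highest folds belonged to cystine import, the catalytic ligase subunit and Osgin1. Slc7a11 rose from 5.24 to 299.9 FPKM in the authors' deposited table, a log2 fold change of 5.84. Osgin1 rose from 14.7 to 631 FPKM (log2 fold change 5.42) in the authors' deposited table. Gclc rose from 37.3 to 1282 FPKM (5.10) in the authors' deposited table. They stood at ranks 84 (Slc7a11), 109 (Osgin1) and 117 (Gclc) of the 12854 tested entries of the authors' deposited table by fold change. Slc7a11, the gene nearest the floor in the dose table, thus had the highest fold of the 10 here.

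The thiol enzymes Srxn1 and Txnrd1 followed, and the 2 regulators had the lowest folds. Srxn1 rose from 149 to 1898 FPKM (3.67) and Txnrd1 from 183 to 1201 (2.72) in the authors' deposited table. Nqo1 rose from 2.62 to 10.2 FPKM (1.96) in the authors' deposited table and stayed the lowest of the 10 in FPKM under treatment. The Gclm entry rose from 1017 to 3062 FPKM (1.59) and Hmox1 from 1895 to 5601 (1.56) in the authors' deposited table. Nfe2l2 itself rose from 85.2 to 235 FPKM (1.46) in the authors' deposited table. Keap1 rose least, from 22.0 to 29.5 FPKM (0.42) in the authors' deposited table, under 2-fold.

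The balance between partners also differed between the tables. The Gclm entry was 27.3 times Gclc in FPKM in untreated and 2.39 times in treated cells of the authors' deposited table. The ratio of Nfe2l2 to Keap1 was 3.87 in untreated and 7.97 in treated cells of the authors' deposited table, where the dose table has 3.91 and, at 20 U/ml, 1.71. Slc3a2 stood 124 times above Slc7a11 in untreated and 9.92 times above it in treated cells of the authors' deposited table, and 751 and 2624 times above it in untreated cells and at 20 U/ml in the dose table.

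**Figure D3:**
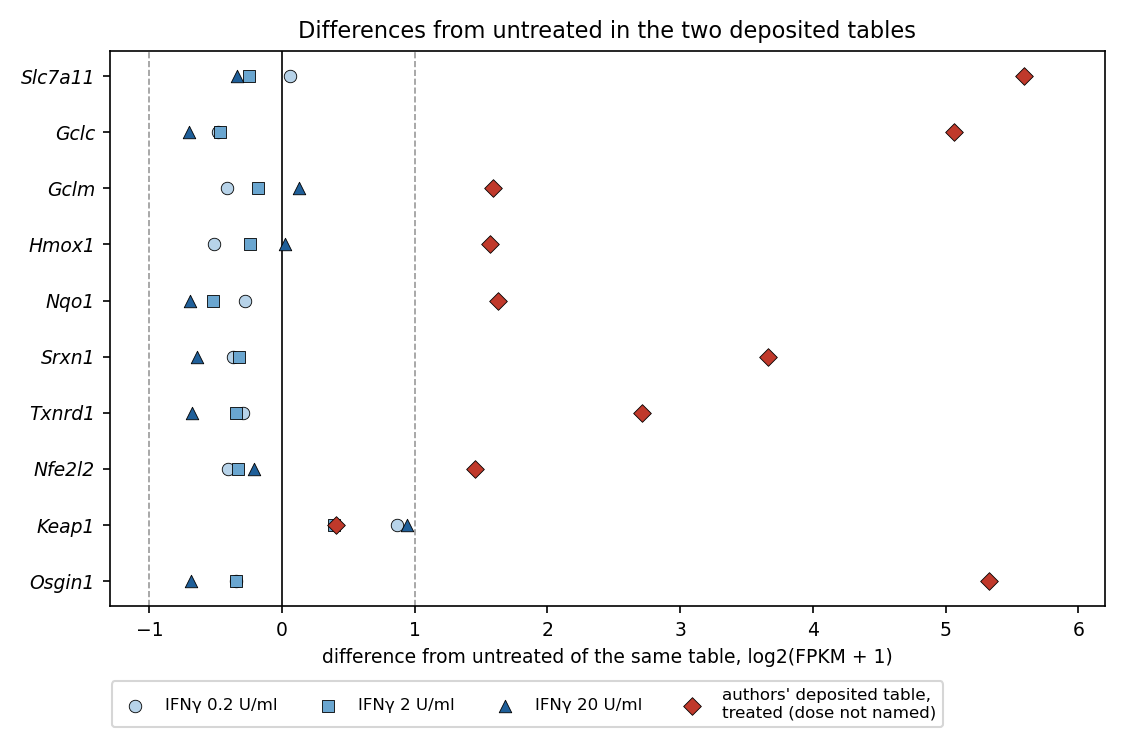
Difference from the untreated value of the same table on the log2(FPKM + 1) scale (x axis) for the 10 genes (y axis), at 3 IFNγ doses (blue) and in the authors' deposited comparison (red diamonds, treatment not named); dashed lines mark 2-fold. Every blue point lies within the dashed lines, and the red diamonds lie beyond 1 for every gene except Keap1.

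Untreated levels of these genes already differed between the tables. The tables were normalized separately, so the levels below are set side by side without a test. Over 10808 entries used in both, the untreated FPKM of the authors' deposited table had a median of 0.849 times that of the dose table. The Gclm entry was 10.5 times higher in untreated cells of the authors' deposited table than in those of the dose table, Hmox1 8.62 times and Slc7a11 7.35 times. Of the entries in both, 0.342%, 0.4996% and 0.629% had a ratio at or above those of Gclm, Hmox1 and Slc7a11 in the authors' deposited table. Txnrd1 (4.11 times), Srxn1 (3.47), Osgin1 (2.55) and Gclc (2.43) were also higher in untreated cells of the authors' deposited table. Nfe2l2, Keap1 and Nqo1 were not: their ratios, with the authors' deposited table in the numerator, were 0.919, 0.927 and 1.09. In all, 7 of the 10 genes were more than 2-fold higher in untreated cells of the authors' deposited table, beside 10.8% of all entries 2-fold higher and 24% 2-fold lower. These levels, too, were in view when the genes were chosen, and nothing is read from the count.

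**Figure D4:**
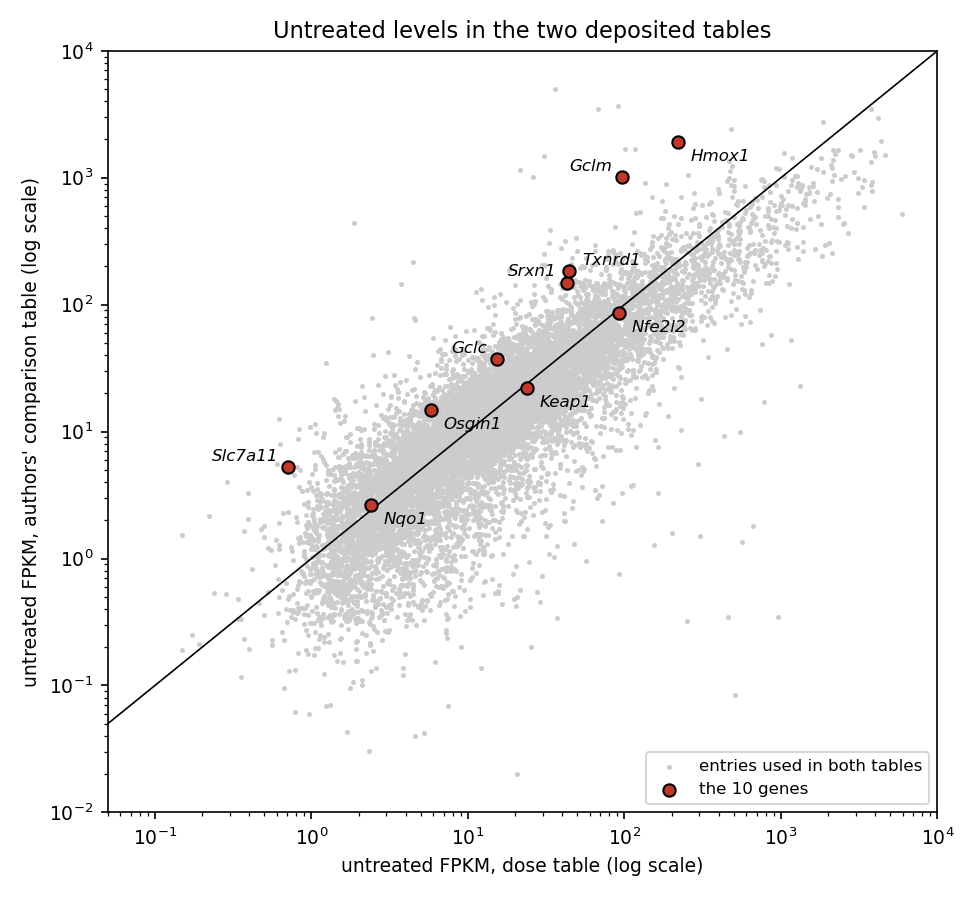
Untreated FPKM in the dose table (x axis, log scale) against untreated FPKM in the authors' deposited comparison (y axis, log scale); grey points are 10808 entries used in both, red points the 10 genes, and the line marks equal values. Gclm, Hmox1 and Slc7a11 lie 7.35 to 10.5 times above the line, and Nfe2l2, Keap1 and Nqo1 lie near it.

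Genes known to respond to IFNγ were set beside this contrast. Irf1, an interferon-induced transcription factor, was at 34.1 FPKM untreated, 89.1 at 0.2 U/ml and 511 at 20 U/ml in the dose table. Gbp2, a guanylate-binding protein, was at 8.13, 20.8 and 343 in the same order. In the authors' deposited table Irf1 was at 10.1 and 13.2 FPKM (q = 0.0747) and Gbp2 at 0.824 and 1.00 (q = 0.310). Of 6 such genes, all 6 were 2-fold higher at 20 U/ml, whereas 4 were tested in the authors' deposited table and 1, Cd274, was called higher there. Cd274, which encodes PD-L1, went from 4.37 to 23.2 FPKM in the authors' deposited table. Socs1 was not called there (0.858 and 1.19 FPKM, q = 0.0790). Cxcl9 (0.0330 and 0.0194 FPKM) and Ciita (0.0247 and 0.00710) were not tested there. Whether the 2 tables describe the same treatment was not tested, and no source used here names the agent behind the treated condition.

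Both tables carry macrophage transcripts. Adgre1, which encodes F4/80, was between 137 and 189 FPKM over the 4 groups, and at 348 and 191 FPKM in untreated and treated cells of the authors' deposited table. It was 1 of 7 macrophage markers. Csf1r, Itgam, Cd68 and Mertk were above 1 FPKM in every condition of both tables. These, Adgre1 and Fcgr1 were called lower in treated cells of the authors' deposited table, beside 33.8% of all tested entries. Fcgr1 rose from 32.3 FPKM untreated to 348 at 20 U/ml, but fell from 32.1 to 7.49 in the authors' deposited table. Lyz2 could not be read: it was listed at 0 except at 20 U/ml (7449 FPKM), and at 0 and 4366 without a test in the authors' deposited table. Of 28 markers of 6 other cell types, 24 were under 1 FPKM in all 4 groups, among them all 5 erythroid markers, a lineage that also handles heme. S100a8, a neutrophil marker, was at 13.3, 18.0, 25.6 and 30.4 FPKM in order of dose, while Ly6g, Mpo, Elane and Camp stayed under 1. Kdr, an endothelial marker, was at 1.45, 1.64, 1.75 and 2.01 FPKM. In the authors' deposited table Kdr was called higher, going from 0.747 to 1.89 FPKM. Siglech (1.97 FPKM) and Ms4a1 (1.09), markers of dendritic and B cells, passed 1 only at 0.2 U/ml. The part of such cells in the values above was not tested. In bulk RNA, fewer cells that express a gene and less RNA of it per cell cannot be told apart.

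The wider pathway was followed in 6 lists with 101 genes that passed the filter in the dose table and 103 tested in the authors' deposited table. At 20 U/ml 12 of the 101 were 2-fold higher and 5 lower, beside 6.51% and 2.94% of all entries. At 2 U/ml 0 were higher and 3 lower (all entries 2.5% and 0.76%), and at 0.2 U/ml 2 were higher and 0 lower (5.23% and 0.328%). Of the 103, 45 were called higher and 38 lower in the authors' deposited table, beside 35.1% and 33.8% of all tested entries. The same percentages are the background of each single list.

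Genes that control NRF2 were within 2-fold at every dose, 0 of 11 in either direction, with a median log2 difference of 0.19 at 20 U/ml. Farthest from 0 at 20 U/ml were Mafk (0.64) and Maff (0.43), which encode small MAF partners, and Sqstm1 (-0.42), which encodes p62, a protein that binds KEAP1. Maff was low, at 0.851 FPKM untreated and 1.49 at 20 U/ml. Of 12 tested in the authors' deposited table, 9 were called higher and 2 lower. Sqstm1 rose from 864 to 11989 FPKM, Mafk from 11.2 to 55.3 and Maff from 5.02 to 6.57 (q = 0.00786) in the authors' deposited table.

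In the list of glutathione synthesis and use, 3 of 26 genes were higher and 2 lower at 20 U/ml, with a median of -0.28. Ggct (1.43) and Chac1 (1.05), which act in glutathione breakdown, and Glrx (1.21), a glutaredoxin, were higher. The glutathione transferases Gstm1 (-1.45) and Gsta3 (-1.38) were lower, with Gstm1 at 171 FPKM untreated and 131.9, 68.3 and 62.0 at the rising doses. Gsta3 and Chac1 were low, at 2.77 and 2.64 FPKM untreated and at 0.450 and 6.57 at 20 U/ml. The authors' deposited table called 10 of 27 genes of this list higher and 9 lower. Gsta3 rose from 13.6 to 27.5 FPKM, while Gstm1 fell from 174 to 104 and Ggct from 6.74 to 1.98, in the authors' deposited table. Chac1 rose from 0.437 to 3.08 FPKM in the authors' deposited table, and Glrx was at 130 and 115 (q = 0.0845).

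Among 21 thioredoxin, peroxiredoxin and related genes, 2 were higher and 1 lower at 20 U/ml, with a median of -0.07. Prdx5, a peroxiredoxin, was at 638 FPKM untreated and at 911, 1122 and 2535, a log2 difference of 1.99 at the highest dose. Sod2, mitochondrial superoxide dismutase, was at 20.4 FPKM untreated and 51.4 at 20 U/ml. Sesn1, a stress-induced sestrin, was at 68.1 FPKM untreated and 23.1 at 20 U/ml. The authors' deposited table called 9 of 21 higher and 8 lower. Prdx5 rose from 372 to 1302 FPKM in the authors' deposited table, where Sesn1 fell from 48.9 to 1.89 and Sod2 from 26.4 to 22.1 (q = 0.0145).

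NADPH supply had 1 of 11 genes higher and 1 lower at 20 U/ml, with a median of -0.25. Mthfd2, a mitochondrial folate enzyme, was at a log2 difference of 1.02 and was higher. The isocitrate dehydrogenase Idh1 was the lower gene, at 107 FPKM untreated and 42.9 at 20 U/ml, and Idh2 was at 88.5 and 58.3 FPKM. The authors' deposited table called 4 of 11 higher and 5 lower, with Mthfd2 going from 31.0 to 48.4 FPKM, Idh1 from 135 to 72.6 and Idh2 from 41.9 to 11.4. Of 18 genes of heme, iron and quinone detoxification, Tbxas1, thromboxane synthase, was higher at 20 U/ml with a log2 difference of 1.16, and the list had a median of -0.29. Akr1b8, an aldo-keto reductase, was lower by 2-fold, at 18.5 FPKM untreated and 8.73 at 20 U/ml, and Pir came next at 7.02 and 3.39 FPKM. Of the 18, 6 were called higher and 10 lower in the authors' deposited table. Akr1b8 rose from 42.7 to 94.6 FPKM and Pir from 2.33 to 4.67 in the authors' deposited table, and Tbxas1 fell from 135 to 88.1.

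Targets of ATF4, the amino acid stress factor that also acts on Slc7a11, were 2-fold higher in 5 of 14 genes at 20 U/ml and lower in 0, with a median of 0.66, beside 6.51% higher and 2.94% lower of all entries. These were the serine synthesis enzyme Psat1 (1.70), the glycine transporter Slc6a9 (1.66), Trib3 (1.13), Nupr1 (1.08) and Asns (1.05), asparagine synthetase. Slc7a11 was not among them, at 0.350 against 0.713 FPKM. Slc6a9 was low in the dose table, at 0.394 FPKM untreated and 3.40 at 20 U/ml. Of the 14, 7 were called higher and 4 lower in the authors' deposited table, beside 35.1% and 33.8% of all tested entries. Trib3 rose from 2.66 to 23.6 FPKM and Nupr1 from 8.49 to 30.2, while Psat1 fell from 20.2 to 2.26, in the authors' deposited table. Asns was at 41.1 FPKM in both conditions (q = 0.999) and Slc6a9 at 2.06 and 1.69 (q = 0.548) in the authors' deposited table.

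**Figure D5:**
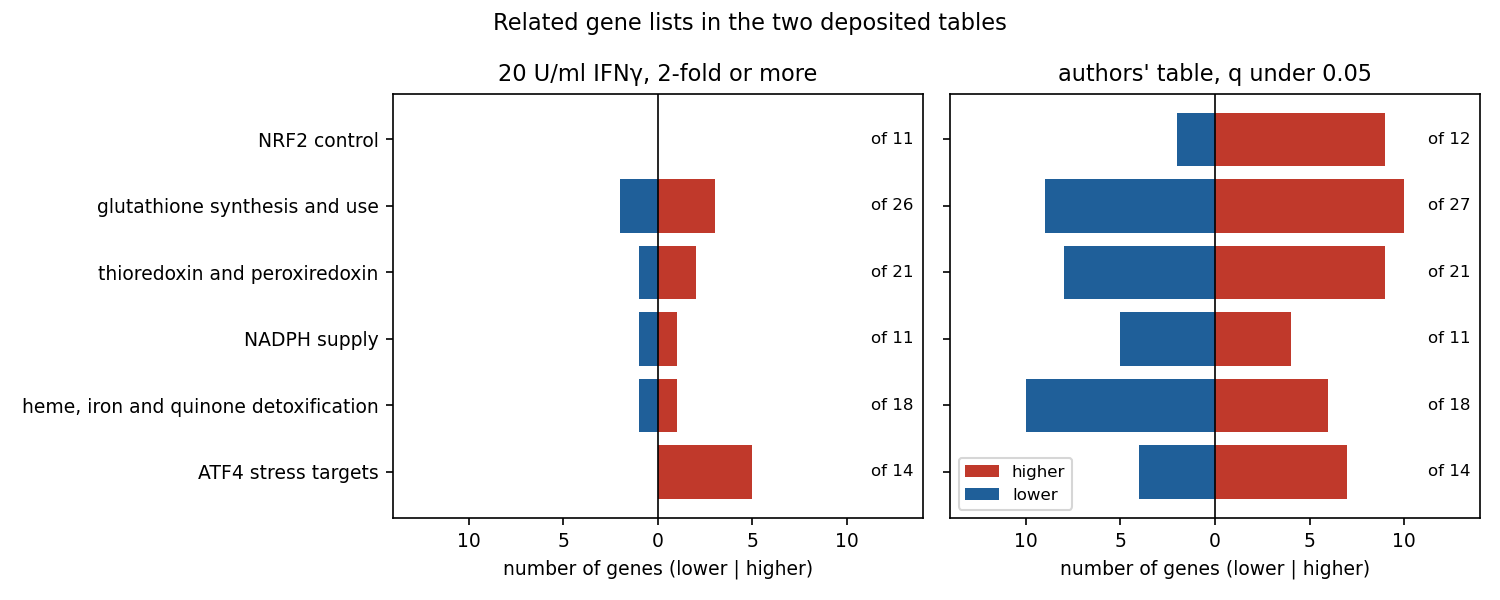
Number of genes (x axis) higher (red, to the right) and lower (blue, to the left) in each of 6 related lists, at 20 U/ml IFNγ by 2-fold (left panel) and in the authors' deposited comparison by q under 0.05 (right panel); the number measured stands at the right edge. ATF4 targets have 5 of 14 higher and 0 lower at 20 U/ml, and in the right panel every list has genes in both directions.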

How the data were processed

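RNA of 12 mouse macrophage libraries was sequenced. The submitters' processing notes name TopHat2 2.1.1, Cufflinks 2.1.1, Cuffdiff 2.1.1 and mm10. The authors deposited FPKM, 1 value per group, per the file headers. The untreated column names no unit and was read as FPKM. How the 3 libraries of a group were combined, and whether counting used strand, is unstated in the sources. The other deposited table, a comparison, holds FPKM of 2 conditions, a log2 fold change, a test statistic (score), p-values and q-values, per the file headers. Its values were copied without any new test.

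Here, differences of log2(FPKM + 1) were taken with pandas 2.3.3 over 11580 entries with a mean of at least 1 FPKM and no group at 0, since an exact 0 can be a failed estimate (272 entries). The planned limma test needs values per library and could not be made. Values between 0 and 0.1 FPKM, looked at over 1661 entries that stay in that range, gave no step of whole reads: the most common ratio was shared by 35. Each value combines the libraries of a group, which can hide such a step, so nothing about depth is read from this. The ratio step was tested on simulated data. Changes well past 2-fold were planted there in well expressed entries only, so low genes and differences under 2-fold were not covered. Gene positions came from GENCODE M21 (GRCm38) and promoter sequences from RefSeq (GRCm38.p6).

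The 10 genes and the lists were chosen with earlier results of these data known. Named were all 10 genes, the 3 genes of each list farthest from 0 at 20 U/ml, all genes of a list past 2-fold where they were 5 or fewer, and Irf1 and Gbp2. Genes of like pattern were to be named for members past 2-fold at any dose, and there were 0. Slc3a2, Cd274, Socs1, Cxcl9, Ciita, the macrophage markers, S100a8, Kdr, Siglech, Ms4a1 and overlapping or undetected genes were named after their values were seen. Alternatives were the pseudocount, filters, scaling, the size rule and single-gene entries. A further planned promoter motif is not reported here.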

Additional observations from a re-analysis of the deposited data

How the results depend on the processing

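The count of genes past 2-fold, among those of the 10 that passed the filter, was 0 at 2 U/ml under every alternative run. At 20 U/ml it was 1 of 9 (Nqo1, lower) with a pseudocount of 0.1, 0.01 or 0. The last was added after the data were seen, and the log2 differences of Nqo1 were -1.05, -1.11 and -1.12. Under these pseudocounts Slc7a11 failed the filter and was not counted, though it was at 0.492 of its untreated FPKM at 20 U/ml. At the 1.5-fold size the count was 6 at 20 U/ml (5 lower, 1 higher) and 1 at 0.2 U/ml (Keap1, higher). The other filters, both scalings and single-gene entries left it at 0. The count in the authors' deposited table was 10 by q and 9 by a 2-fold size. Of 207 recomputed log2 differences of single genes, 201 kept their sign and side of the size rule. The 201 include the values under the filter and single-gene settings, which cannot change a gene's own difference and were the same in advance. Only the pseudocounts and scalings could move a value. Of the 207, 3 changed sign, all at 20 U/ml: Gclm (-0.02) with upper-quartile scaling, and Hmox1 with upper-quartile (-0.12) or median (-0.09) scaling. Upper-quartile scaling moved the median of all entries by -0.10 at 0.2 U/ml and -0.12 at 20 U/ml, where the share of higher among 2-fold entries went from 68.9% to 57.2%. With pseudocounts of 0.1, 0.01 and 0, entries lower by 2-fold numbered 71, 76 and 77 at 0.2 U/ml (38 as reported), 174, 192 and 194 at 2 U/ml (88), and 539, 572 and 575 at 20 U/ml (340). With no filter there were 147 at 0.2 U/ml and 193 at 2 U/ml, out of 46729 entries. With a mean of at least 5 FPKM there were 24 and 58, out of 8442. The reported counts are out of 11580, so counts under these 2 filters are not on the same base. No replicate could be left out, and depth cannot be weighed, since each group has 1 deposited value. No paired analysis was possible because the deposited columns carry no replicate number.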

Other observations

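The ferritin genes, iron storage genes that NRF2 is known to act on, could not be read in either table. Fth1 was listed at 0 in untreated cells and at 0.2 and 2 U/ml and at 12841 FPKM at 20 U/ml, and the merged entry of Ftl1 and Gm22133 at 0 and 72942. In the authors' deposited table both entries had no FPKM above 0 and the status HIDATA, Cuffdiff's mark for a locus with too many fragments, which 10 entries carried in all. A further entry of Fth1 was at 0 in all 4 groups, and at 0 and not tested in the authors' deposited table.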
